A study of Mus musculus with 2 samples.

Results

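The genes described here are 39 DNA replication and S-phase genes, taken as a list of gene symbols and looked up by the gene name that the array files give each probe. The list names genes by function, and its rule uses no measured value, although it was drawn up with earlier results of these data known. All 39 genes had probes, out of 36866 gene names on the array. The expression levels of these genes were measured in epithelial cells of the submandibular gland, a major salivary gland, from C57BL/6 females, with a young sample at 9 weeks of age and an aged sample at 24 months. No transgene, deletion or treatment was used, and the design text gives 1 mouse of each age. The cells were collected on magnetic beads that bind EpCAM (CD326), an adhesion molecule on the surface of epithelial cells, and the RNA of each sample was labelled with Cy3, a fluorescent dye, for 1 Agilent mouse array. The young and aged mice came from different sources according to the study's methods, so age, source and the single animal cannot be told apart.

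Before a cell copies its genome, the origin recognition complex, Cdc6 and Cdt1 load the ring-shaped MCM helicase onto chromatin, which licenses the origin of replication. At the start of S phase, Cdc45, the GINS complex and Mcm10 help to turn the loaded ring into an active helicase, DNA polymerases copy the strands behind it, and chromatin assembly factor 1 packs the new DNA with histones. Transcription factors of the E2F family, together with cyclin E and its kinase, drive the expression of many of these genes, whose messenger RNAs are therefore most abundant in cells that have entered the cell cycle and scarce in resting cells. Salivary gland epithelium in the adult is made up mostly of resting cells.

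With 1 array per age there was no replicate of either age, so no test was made, no p-value is given, and a difference describes these 2 RNA samples. On each array, a level is the log2 of the processed signal minus the log2 of the 75th percentile of the signals of 59305 probe spots. The 75th percentile was 256 intensity units for the young sample and 198 for the aged sample. A difference is the aged level minus the young level. The error given with it comes from the scanner software's error model for the 2 spots, and it leaves out the variation between mice. A probe that the scanner software marked as well above background is called detected. Of 56597 probes, 30204 (53.4%) were detected in the young sample and 27448 (48.5%) in the aged sample, and saturation was not seen. A gene detected on 1 array only has a lower limit of its fold, taken against the lowest detected signal of the other array (14.1 intensity units in the young sample, 14.3 in the aged sample) or against the gene's own signal there if that was higher. In bulk RNA of this kind, fewer cells that express a gene and less RNA per cell cannot be told apart.

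Of the 39 genes, 32 were measured on both arrays, 4 on the young array only (Pole, Tk1, E2f2 and Exo1) and none on the aged array only. The remaining 3 genes, Orc1, Cdc45 and Ccne2, were detected on neither array. On the whole array, 21284 genes were detected at least once. Of those, 2106 were seen in the young sample alone and 485 in the aged sample alone. The lean towards the young sample was thus not particular to the replication genes. Among the 32 genes measured on both arrays, 10 were at least 2-fold lower in the aged sample, which is 31.3% of them, and 0 were at least 2-fold higher. Over all 18693 genes measured on both arrays, 3.04% were at least 2-fold lower and 1.51% at least 2-fold higher. Among the 15918 of these genes whose mean level lay within the range of the replication genes, 3.47% were at least 2-fold lower. A further 3 replication genes (Pole, Tk1 and E2f2) were at least 2-fold lower by their limit. With them, 13 of the 36 genes measured on at least 1 array (36.1%) were lower, against 5.14% of 21284 genes by the same count. These 3 genes were detected on the young array only, so the filter fixed the direction of their limits. They add nothing to the direction seen in the 10 genes measured on both arrays.

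The lower genes did not make up the whole list. The differences ran from -1.73 for E2f1 to 0.41 for Fen1, with a median of -0.32 and a middle range of -1.15 to -0.04, while the median over all genes measured on both arrays was 0.09. When the 3 genes with a limit were set at that limit and Exo1, which has none, at 0, the median over 36 genes was -0.38. By the same rule, the median over all 21284 genes detected at least once was 0.05. In all, 26 of the 32 genes were lower on the aged array by any amount and 6 were higher (Orc6, Prim1, Pold1, Pcna, Fen1 and Brca1), where 40.1% of all genes measured on both arrays were lower and 59.9% higher. The error of a single difference lay between 0.20 and 0.34, and 13 of the 32 genes were lower by more than 2 such errors, whereas 0 were higher by more than 2. Over all genes measured on both arrays, 10.5% were lower and 17.4% higher by more than 2 errors. The threshold fell between Chaf1b, just inside it at -1.02, and Ccne1, just outside it at -0.91.

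**Figure D1:**
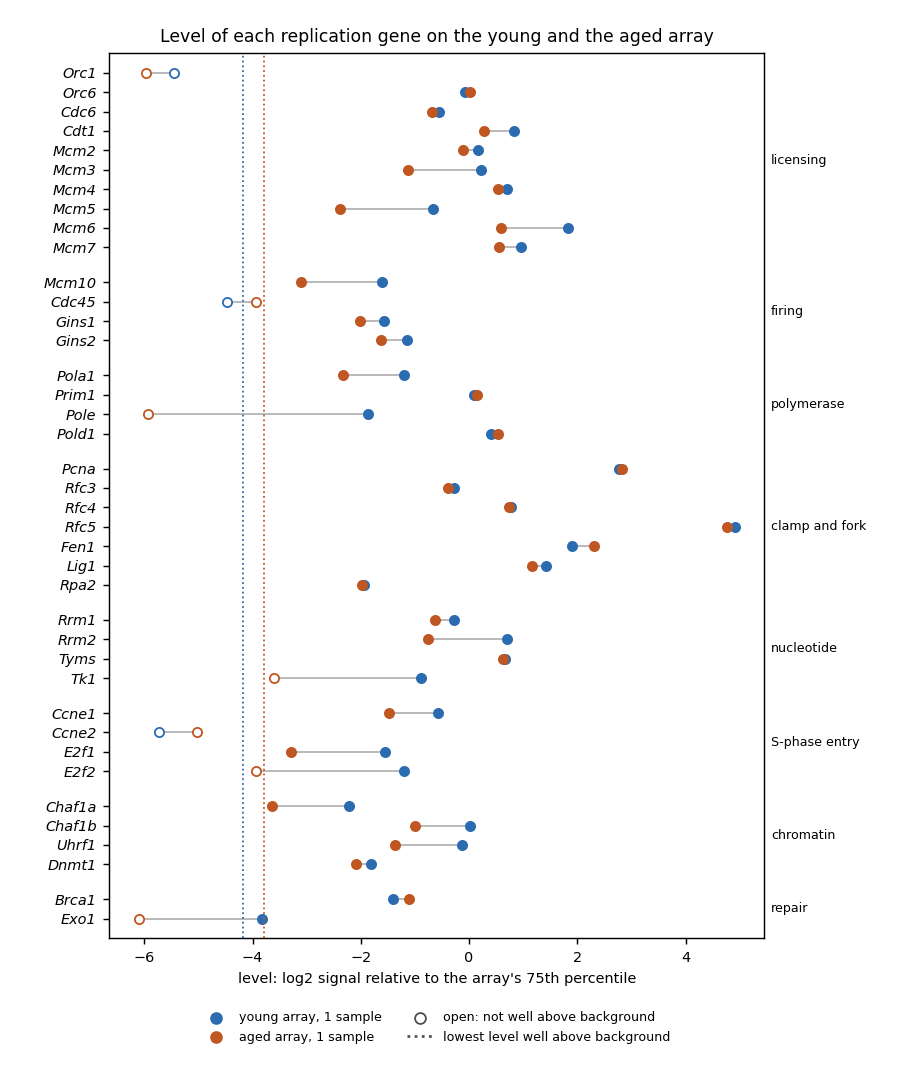
Level of each of the 39 replication genes on the young array (blue) and the aged array (orange), 1 sample each, as log2 signal relative to the 75th percentile of the array on the horizontal axis, with genes grouped by role on the vertical axis. Open circles were not detected and dotted lines mark the lowest detected level of each array (-4.19 young, -3.79 aged); the clamp and fork genes have nearly overlapping points, while Mcm5, E2f1, Chaf1a and Tk1 have widely separated ones.

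**Figure D2:**
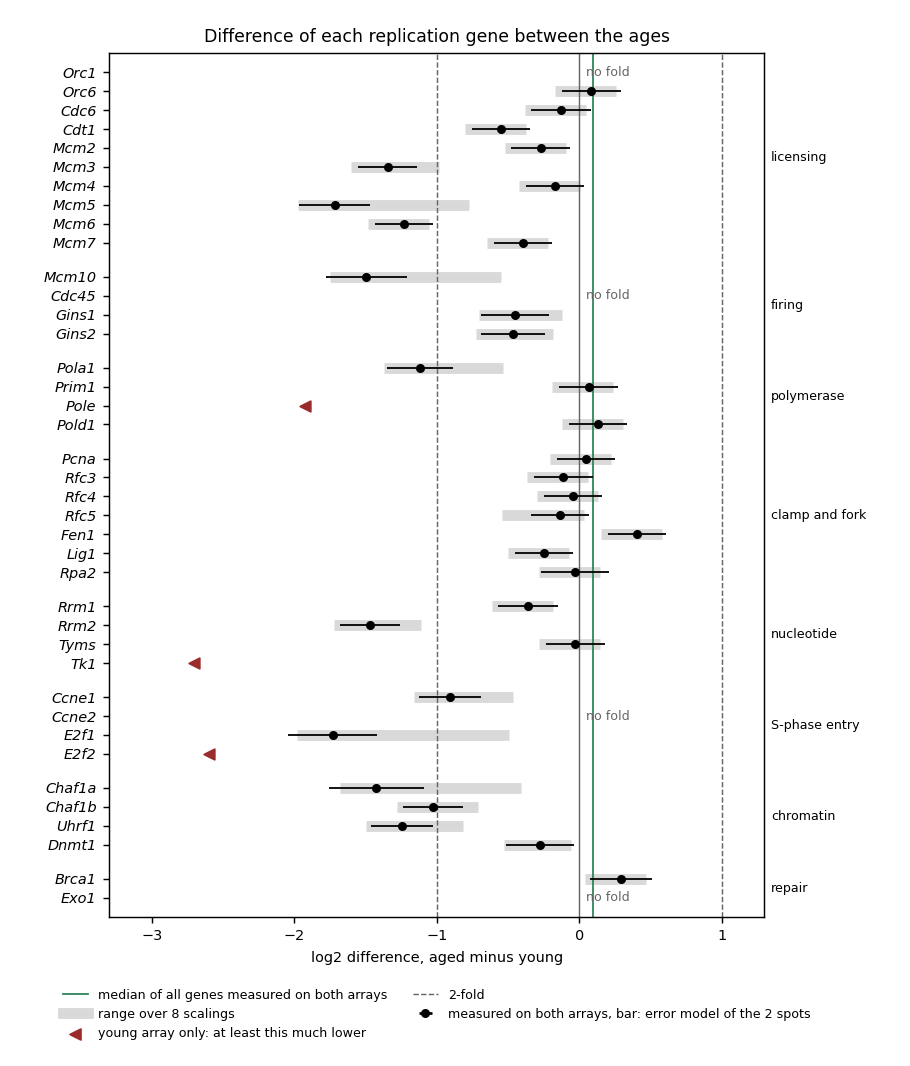
Log2 difference, aged minus young, for each replication gene on the horizontal axis, with genes grouped by role on the vertical axis. Black points are genes measured on both arrays with a bar of 1 error of the 2 spots, grey bands span 8 scalings of the arrays, and red triangles are limits; 10 points lie beyond the dashed 2-fold line on the lower side and 0 beyond the one on the higher side.

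Because E2F factors act at the promoters of many replication genes, the promoter sequences were read for the letters of an E2F site. RefSeq windows of 300 bases (250 before and 50 after the start of transcription, GRCm38.p6) were at hand for 33 of the 39 genes. The letters TTTCCCGC, TTTCGCGC, TTTGCCGC or TTTGGCGC, on either strand, were found in the windows of 14 of these 33 genes (42.4%), against 704 of 27025 genes in the whole table (2.61%). At least 2 matches, which may overlap on opposite strands, were present in 6 of the 33 genes (18.2%) and in 0.107% of all genes. The replication genes were also richer in G and C, with a median of 61.3% against 53.3% for all genes in the table, and these E2F letters are themselves rich in G and C. A match is a description of the sequence and does not show that a factor binds there.

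The letters were found both in genes that were past 2-fold in the aged sample and in genes that were not. A match was present in 6 of the 12 genes with a window that were at least 2-fold lower, measured or by limit (50%), and in 7 of the 19 that were measured on both arrays and were under 2-fold (36.8%). Of 21 matches, 12 lay wholly before the start of transcription, from 219 to 10 bases away, in 9 genes, and 5 genes (Mcm3, Cdt1, Lig1, Pold1 and E2f2) had matches only at or after the start. The stretches below show the matches before the start, with 20 bases before the first match and 12 after the last. They are given for 4 genes that were at least 2-fold lower (Mcm5, Mcm6, Pola1, Uhrf1) and 3 that were not (Cdc6, Mcm7, Dnmt1). Each reads 5′ to 3′ on the strand of the gene, with the E2F letters in capitals.
Mcm5, chr8:75109336-75109379 (+): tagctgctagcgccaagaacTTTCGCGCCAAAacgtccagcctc
Mcm6, chr1:128359733-128359835 (-): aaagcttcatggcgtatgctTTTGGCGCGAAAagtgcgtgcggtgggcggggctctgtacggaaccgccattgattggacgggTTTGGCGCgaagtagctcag
Pola1, chrX:93632274-93632313 (-): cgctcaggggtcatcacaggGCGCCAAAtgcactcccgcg
Uhrf1, chr17:56304108-56304147 (+): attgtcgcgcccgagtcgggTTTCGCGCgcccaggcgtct
Cdc6, chr11:98907993-98908032 (+): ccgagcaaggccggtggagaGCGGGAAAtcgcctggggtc
Mcm7, chr5:138172029-138172068 (-): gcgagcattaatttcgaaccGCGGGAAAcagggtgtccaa
Dnmt1, chr9:20952823-20952862 (-): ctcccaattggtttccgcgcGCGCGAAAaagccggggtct

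In Mcm5, and at the first of the sites shown for Mcm6, a match on one strand overlaps a match on the other, so that the capitals read TTTCGCGCCAAA and TTTGGCGCGAAA. The CCAAT box, spelled CCAAT on either strand, was found in 21 of the 33 replication genes (63.6%) and in 41.1% of all genes. The cell cycle homology region (CHR), spelled TTTGAA on either strand and known from promoters of mitotic genes, was found in 5 of the 33 replication genes (15.2%) and in 20.2% of all genes. In a list of further DNA replication genes, the E2F letters were found in 11 of 39 genes (28.2%) and the CHR letters in 9 (23.1%). In a list of mitosis and spindle genes, the CHR letters were found in 29 of 40 genes (72.5%) and the E2F letters in 4 of 40 (10%).

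**Figure D3:**
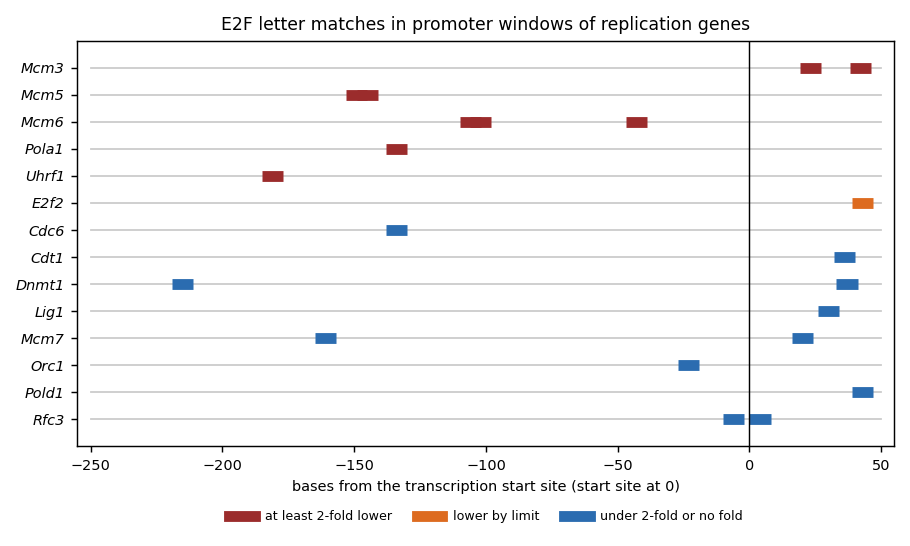
Positions of the E2F letter matches (bars) in the promoter windows of the 14 replication genes that have one, in bases from the start of transcription on the horizontal axis, with one gene per row. Red marks genes at least 2-fold lower and measured on both arrays, orange a gene lower by its limit and blue genes that were under 2-fold or had no fold; both red and blue genes have matches before and after the start.

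Among the licensing genes, which prepare origins for replication, 3 of the 9 measured on both arrays were at least 2-fold lower in the aged sample and the median difference was -0.39. The MCM helicase is a ring of 6 subunits, Mcm2 to Mcm7, and the subunits did not differ by the same amount. Mcm5 gave processed signals of 161 (young) and 37.7 (aged), which is a level of -0.67 against -2.39 and a difference of -1.72 ± 0.25, or 3.29-fold lower. Mcm3 gave 298 and 90.6, levels of 0.22 and -1.13, with a difference of -1.35 ± 0.21, or 2.54-fold lower. Mcm6 gave 908 and 299, levels of 1.83 and 0.59, with a difference of -1.23 ± 0.20, or 2.35-fold lower.

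The other 3 subunits of the ring stood closer together on the arrays. Mcm7 gave signals of 495 and 291 (difference -0.39 ± 0.21), Mcm2 gave 286 and 183 (-0.27 ± 0.21) and Mcm4 gave 416 and 285 (-0.17 ± 0.20). All 6 subunits were therefore lower in the aged sample, although for Mcm2, Mcm4 and Mcm7 the difference was under 2 errors of the spots. On NCBI37 (mm9), the build of the array files, the probes of the 3 lowest subunits lie at chr8:77651350-77651410 (+) for Mcm5, chr1:20793159-20793218 (-) for Mcm3 and chr1:130228178-130228237 (-) for Mcm6. Their place relative to exons and UTRs was not analysed here.

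The loading factors showed a smaller difference than Mcm3, Mcm5 and Mcm6. Cdt1, which brings the MCM ring to the origin, gave signals of 453 and 239, levels of 0.82 and 0.27, and a difference of -0.55 ± 0.21. Cdc6, the ATPase that works beside it, gave 175 and 123 (-0.13 ± 0.21), and Orc6, a subunit of the origin recognition complex, gave 243 and 199 (0.08 ± 0.21). Orc1, an ATPase subunit of that complex, was not detected with any of its 3 probes. Cdc6 and Mcm7, whose promoter stretches with E2F letters are printed above, were thus under 2-fold, as was Cdt1.

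Of the factors that fire the licensed origin, Mcm10 stood apart. Its signals were 83.5 and 22.9, levels of -1.62 and -3.11, for a difference of -1.49 ± 0.29, or 2.82-fold lower, with the probe at chr2:4911845-4911904 (-). A second Mcm10 probe, which belongs to another transcript (ENSMUST00000125201), went the other way: its signal was 13.7, not detected, in the young sample and 19.0 in the aged sample, a limit of at least 0.81 higher on the log2 scale. Gins1 and Gins2, the GINS subunits on this list, belong to a complex that travels with the active helicase. These 2 genes were lower by less, with signals of 86.1 and 48.7 for Gins1 (-0.45 ± 0.24) and 115 and 64.3 for Gins2 (-0.47 ± 0.22). The other GINS subunits, Gins3 (0.70 ± 0.20) and Gins4 (0.13 ± 0.20), from the list of further replication genes, were higher. Cdc45, the third part of the active helicase, was not detected with either of its probes.

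The 4 polymerase genes of the list were split. Pola1, the catalytic subunit of DNA polymerase alpha, which starts each new strand, gave signals of 111 and 39.5, levels of -1.21 and -2.32, and a difference of -1.12 ± 0.23, or 2.17-fold lower, with the probe at chrX:90550189-90550248 (-). Its partner Prim1, the primase that lays down the RNA primer, gave 271 and 219 (0.07 ± 0.21). Pold1, the catalytic subunit of polymerase delta for the lagging strand, gave 337 and 286 (0.13 ± 0.20). The catalytic subunit of polymerase epsilon for the leading strand, Pole, gave 70.2 in the young sample and was not detected in the aged sample, so that it was at least 3.80-fold lower, with the probe at chr5:110766375-110766434 (+). Prim1 and Pold1 were therefore close to the median of all genes, whereas Pola1 and Pole were lower. This does not hold for each polymerase as a whole. Other subunits, from the list of further replication genes, gave -0.02 for Pole2, 0.22 for Pole3, 0.42 for Pole4 and -0.11 for Prim2. Pold2 gave 0.50, Pold3 0.06 and Pold4 0.06. Pola2 was detected in the young sample only, with a limit of -0.45 on the log2 scale.

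None of the clamp and fork genes was past 2-fold: 0 of 7 were at least 2-fold lower or higher, and the median difference was -0.04. Pcna, the sliding clamp that holds polymerases on DNA and also serves in repair, gave signals of 1751 and 1397, levels of 2.77 and 2.82, and a difference of 0.05 ± 0.20. The subunits of the clamp loader gave differences of -0.11 ± 0.21 for Rfc3, -0.04 ± 0.20 for Rfc4 and -0.14 ± 0.20 for Rfc5. The brightest Rfc5 probe belongs to transcript ENSMUST00000126262 and gave signals of 7677 and 5391, while its RefSeq probe gave 666 and 521 with a difference of 0.02 ± 0.20, and neither difference was past 1 error. With quantile normalization the brightest probe gave -0.54, and with loess -0.53.

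Fen1, the nuclease that removes the flaps at the ends of Okazaki fragments, had the highest difference of the 32 genes, with signals of 957 and 981, levels of 1.90 and 2.31, and a difference of 0.41 ± 0.20, or 1.33-fold higher. Lig1, the ligase that seals these fragments, gave 683 and 445 (-0.25 ± 0.20). Rpa2, a subunit of the protein that coats single-stranded DNA, gave 66.6 and 50.3 (-0.03 ± 0.24). Each of these 3 differences was under 2 errors of the spots.

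Among the genes for deoxynucleotide supply, Rrm2 and Tk1 were past 2-fold, and Rrm1 and Tyms were not. Rrm2, the S-phase subunit of ribonucleotide reductase, gave signals of 418 and 117, levels of 0.71 and -0.76, for a difference of -1.47 ± 0.21, or 2.77-fold lower, with the probe at chr12:25398824-25398883 (+). Tk1, the thymidine kinase of dividing cells, gave 138 in the young sample and 16.4, not detected, in the aged sample, and was at least 6.52-fold lower, with the probe at chr11:117676845-117676904 (-). By contrast, Rrm1, the large subunit of the same reductase, gave 211 and 127 (-0.36 ± 0.21) and Tyms, thymidylate synthase, gave 404 and 307 (-0.03 ± 0.20).

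Of the 4 genes for entry into S phase, the 2 measured on both arrays, E2f1 and Ccne1, were lower in the aged sample. Over all genes measured on both arrays, 40.1% were lower by any amount. E2f1, one of the activating E2F factors, gave signals of 87.4 and 20.3, levels of -1.55 and -3.28, for a difference of -1.73 ± 0.31, or 3.32-fold lower, with the probe at chr2:154385798-154385857 (-). E2f2, a second activating factor, gave 112 in the young sample and 12.9, not detected, in the aged sample. It was at least 6.05-fold lower, with the probe at chr4:135750562-135750621 (+), a limit whose direction was fixed by the filter. Ccne1, cyclin E1, gave 172 and 70.7, levels of -0.58 and -1.48, for a difference of -0.91 ± 0.22, or 1.88-fold lower and thus just short of the threshold. Ccne2, the other cyclin E, was detected on neither array.

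Of the genes that restore chromatin behind the fork, 3 of 4 were at least 2-fold lower, and the median difference was -1.14. The chromatin assembly factor subunit Chaf1a gave signals of 54.9 and 15.8 (-1.42 ± 0.34, or 2.68-fold lower), with the probe at chr17:56206969-56207028 (+). The aged signal of Chaf1a was close to the lowest detected signal of that array (14.3), so the size of this difference is uncertain. Chaf1b, the partner of Chaf1a, gave 261 and 99.0 (-1.02 ± 0.21, or 2.03-fold lower), with the probe at chr16:93906219-93906278 (+). Uhrf1, which reads half-methylated DNA and brings the maintenance methyltransferase to it, gave 235 and 76.5 (-1.25 ± 0.22, or 2.37-fold lower), with the probe at chr17:56462770-56462829 (+). Dnmt1, that methyltransferase, gave 73.2 and 46.8 (-0.27 ± 0.24), which is under 2 errors of the spots. Uhrf1 and Dnmt1 both carry E2F letters before the start of transcription, as printed above, and only the first of them was past 2-fold.

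The last 2 genes act in repair as well as in S phase. Brca1, which works in homologous recombination, gave signals of 97.2 and 92.0 (0.29 ± 0.22), while its other 2 probes were not detected. Exo1, a nuclease of mismatch repair and of DNA ends, gave 18.1 in the young sample, close to the lowest detected signal, and was not detected in the aged sample, so that no fold can be given.

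Several genes were read by more than 1 probe, which lets the direction be compared within the same RNA. The 39 genes had 72 probes, 52 of them detected on at least 1 array and 42 on both, and 31 of these 42 gave a lower level in the aged sample. By the brightest probe of each gene, 40.1% of all genes measured on both arrays were lower. In the 10 genes with at least 2 probes detected on at least 1 array, all of a gene's probes were below 0 in 6. Of these 6, only Pola1 and Rfc3 had all such probes measured on both arrays. The probes of Tk1 and E2f2, and a probe each of Mcm3 and Gins2, were detected on the young array only. Probes of that kind are nearly bound to read lower in the aged sample, so they do not check the direction. The 3 Mcm3 probes measured on both arrays gave -1.35, -1.70 and -1.30, and 2 of them overlap in position. All 3 Tk1 probes detected in the young sample had limits on the log2 scale between -2.97 and -2.42. The second E2f2 probe had a limit of -1.05, and the second Pola1 probe gave -0.71 ± 0.36, short of 2-fold. A single probe stood for 17 of the 39 genes, among them Mcm5, Rrm2, E2f1 and Chaf1a.

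**Figure D4:**
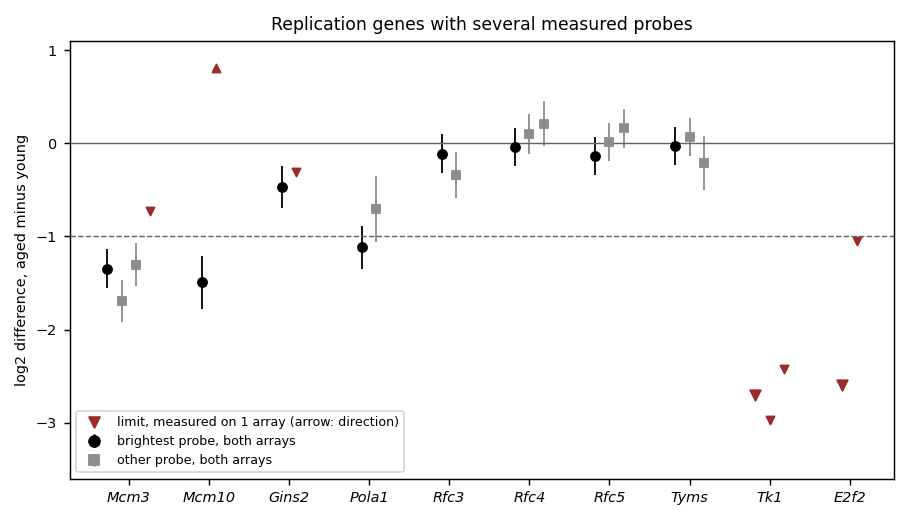
Log2 difference, aged minus young, on the vertical axis for every probe detected on at least 1 array of the 10 replication genes with several such probes, named on the horizontal axis. Circles are the brightest probe measured on both arrays, squares other probes, bars 1 error of the 2 spots and triangles limits that point in their direction; the Mcm3, Tk1 and E2f2 probes all lie below 0, and the Mcm10 probes lie on opposite sides of it.

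Other lists of cell cycle genes set these values in context. Of 39 further DNA replication genes measured on both arrays, 3 were at least 2-fold lower (Asf1b -1.21, Timeless -1.04 and Dck -1.02), 0 were at least 2-fold higher, and the median was 0.02, with Dctd (0.71), Gins3 (0.70) and Topbp1 (-0.67) next in size. Asf1b is a histone chaperone, Timeless a fork protection factor and Dck a nucleoside kinase. In this list 3 more genes, named here after their values were seen, were lower by their limit: Chtf18 by at least 4.13-fold, Fam111a by at least 2.55-fold and Rad51ap1 by at least 2.38-fold. The median of these further genes lay close to that of all genes.

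Regulators of the passage from G1 to S phase included 27 genes measured on both arrays. Of these, 0 were at least 2-fold lower and 1 was at least 2-fold higher, and the median was -0.15. The higher gene was E2f7, an E2F factor that represses transcription, with signals of 74.1 and 229 and levels of -1.79 and 0.21 (error of the difference 0.22), but its other 2 probes were not detected. The next in size were Cdkn2c (-0.81), Cdkn2b (0.71), Cks1b (0.64), Ccnd1 (-0.62) and Ccnd3 (0.61), which encode inhibitors of cyclin-dependent kinases, a subunit of these kinases and D-type cyclins. Named after their values were seen, Rbl1 (the pocket protein p107) and Foxm1 (an activator of mitotic genes) were lower by limits of 4.60-fold and 4.19-fold.

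Mitosis and spindle genes, which are expressed later in the cycle, had a lower median than the replication genes. Of 19 measured on both arrays, 12 were at least 2-fold lower (63.2%), 0 were at least 2-fold higher, and the median was -1.37. Of 26 measured on the young array only, 22 were at least 2-fold lower by their limit, against 526 of 2106 such genes over the whole array. A gene detected on the young array only can have a limit on the lower side only, so the direction of these limits was fixed by the filter. The largest differences were those of Birc5 (-3.86), Cdc20 (-3.24), Cdca8 (-3.20), Ccnb2 (-3.10), Spc24 (-2.58) and Espl1 (-1.89). A second Cdc20 probe, also measured on both arrays, gave a smaller difference of -1.72 ± 0.22. Among the mitosis genes with a limit, and picked after their values were seen, Mki67, the gene for the proliferation marker Ki-67, was at least 24.8-fold lower. Top2a, topoisomerase II alpha, was at least 6.77-fold lower. The difference between these lists was not tested.

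Replication-dependent histone genes, whose transcripts accumulate in S phase, gave a median of 0.14 over 39 genes measured on both arrays. Of these, 4 were at least 2-fold lower and 0 at least 2-fold higher, and 3 other genes were lower by their limit. The largest differences were those of Hist1h2ab (-3.66), Hist1h2ao (-1.32), Hist2h2be (-1.26), Hist1h1c (-1.16), Hist1h4m (0.84) and Hist1h2ai (-0.74). Near-identical copies of these genes can share a probe's signal, so the values of single histone genes are uncertain. The level was higher in the aged sample by some amount in 27 of the 39 genes, where the share over all genes was 59.9%.

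**Figure D5:**
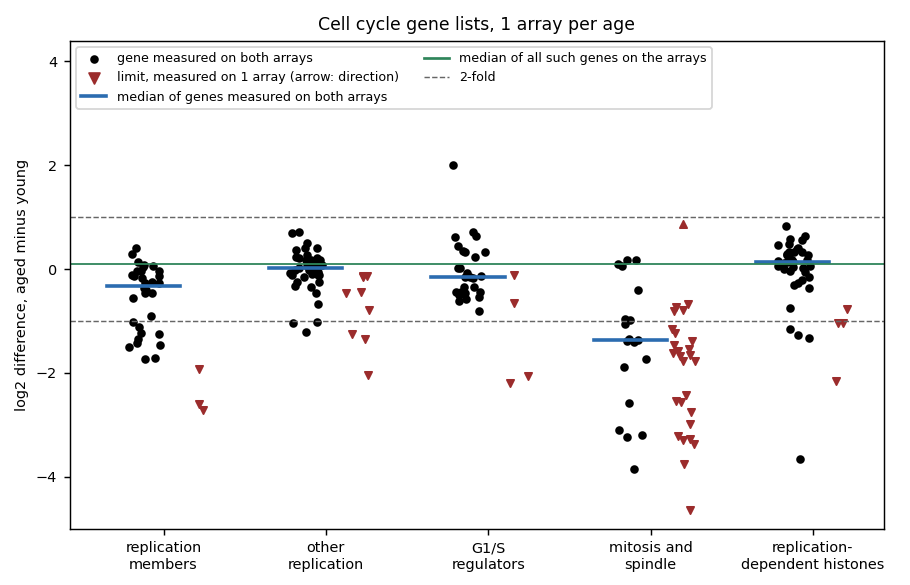
Log2 difference, aged minus young, on the vertical axis for each gene of the 39 replication genes and of 4 other cell cycle lists, named on the horizontal axis, with 1 array per age. Black points are genes measured on both arrays, red triangles limits that point in their direction, blue lines the median of each list and the green line the median of all genes; the mitosis list has the lowest median (-1.37) and the replication genes (-0.32) lie below the green line at 0.09.

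The labelled cell type was checked against its markers, and markers of other cell types were read beside the replication genes. Of 6 epithelial markers, 5 were measured on both arrays with a median difference of 0.20 and 0 past 2-fold, including Epcam (0.20 ± 0.20) and Krt8 (0.03 ± 0.20), while Krt19 was detected in the young sample only and was at least 1.85-fold lower. All 6 acinar and all 6 duct markers were measured on both arrays, with medians of -0.23 and -0.09, and of these 12 only the acinar gene Smgc was past 2-fold (-1.79). Markers of other cells were present too. Of 6 macrophage and dendritic cell markers, 6 were measured on both arrays and 4 were at least 2-fold lower (Itgax -1.64, Adgre1 -1.36, Cx3cr1 -1.11 and Cd68 -1.06), and the summed level of the list, in multiples of the 75th percentile, was 92.2 (young) and 73.6 (aged). Of 6 fibroblast markers, 5 were measured on both arrays and 3 were at least 2-fold lower (Col1a1 -1.81, Col3a1 -1.73 and Col1a2 -1.44) and Pdgfra was at least 2.45-fold lower by its limit, with a summed level of 18.6 and 8.70. The endothelial markers gave a median of -0.56, with 0 past 2-fold and a summed level of 5.99 and 4.16.

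Lymphocyte markers differed in both directions or were not detected. For B cells, Cd79b was lower (-2.14 ± 0.28), Pax5 gave 0.17 ± 0.21, Ms4a1 was at least 1.94-fold lower, and Cd79a and Blk were not detected. For T cells, 4 markers measured on both arrays had a median of 0.31, Cd3g was at least 2.06-fold lower and Cd8a was not detected. The summed level of the 5 T cell markers detected on at least 1 array, Cd3g included, was 10.6 (young) and 12.6 (aged). Of the basal and myoepithelial markers, Cnn1 (-2.14) and Myh11 (-1.83), contractile genes of myoepithelium and smooth muscle, were at least 2-fold lower. The others were not: Acta2 gave -0.08 ± 0.20, Krt5 0.03, Krt14 0.25 and Trp63 0.29. The median over 6 was -0.02. The part of the macrophage, fibroblast and other non-epithelial cells in the lower replication genes was not tested.

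The count of lower genes differed between the ways of processing the signals. Under 8 scalings of the arrays, Mcm6 (-1.49 to -1.06) and Rrm2 (-1.72 to -1.11) were at least 2-fold lower in every one. With the normexp background correction and its constant of 50 added to every signal, whose parts in the change were not tested apart, the other 8 genes came out under 2-fold, E2f1 at -0.50 and Chaf1a at -0.41, and 2 of 32 genes were lower against 1.12% of all genes. Of the 32 genes, 19 were below 0 under all 8 scalings, Mcm2, Mcm3, Mcm5, Mcm6 and Mcm7 among them, whereas Mcm4 was at 0.00 under centring on the median. Of the 6 genes above 0, Fen1 and Brca1 were so under all 8, and Orc6, Prim1, Pold1 and Pcna changed sign with the scaling.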

How the data were processed

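Total RNA (50 ng) was labelled with Cy3 by the authors and hybridized to 8 x 60K arrays. The deposited scanner files, made with Agilent Feature Extraction 12.0.3.1 per the labels, give each spot's intensity after background subtraction and detrending, its error, and marks for outliers and for spots well above background. The authors' processed table holds a signal per spot, which is the scanner intensity over a single constant for the array (its 75th percentile), and served as an alternative.

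Here, log2 of the processed signal minus log2 of the 75th percentile over non-control spots was taken, outlier spots on either array (90 young, 93 aged) were left out, and repeat spots were averaged. A probe had to be detected (marked well above background) on 1 array or both, the brightest kept probe stood for its gene, and a 2-fold difference was the threshold from the methods. In 293 probes with at least 5 spots measured on both arrays, the median SD of the difference between spots was 0.033 on the log2 scale. All 57 probes of these genes with a RefSeq accession matched their symbol in a table of GRCm38.p6 used for names and promoters only.

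The members and lists were chosen with earlier results of these data known. All 39 genes were named, and of each other list up to 6 genes measured on both arrays with the largest absolute difference, apart from those stated and the markers. The value of 1 cell type marker is not reported here. Alternatives covered scaling, background correction, filters, probe averaging and the processed table, and a slide block could not be fitted, since both arrays lay on 1 slide. R 4.3.3 and limma 3.58.1 (normexp offset 50, loess span 0.7 with 3 iterations, quantile) served for normalization, and Python 3.11.15 with numpy 2.4.6, pandas 2.3.3 and matplotlib 3.10.9 for the rest. The steps were tested on simulated data.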

Additional observations from a re-analysis of the deposited data

How the results depend on the processing

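No paired analysis was possible because each age has 1 array, and leaving out a replicate would leave an age with none. Under 13 alternatives, the 32 genes measured on both arrays gave 416 recomputed values. Of these, 372 moved by less than the error of the spots, 44 by more, and 0 of those for genes past 2-fold changed sign. The changes of the filter on dim probes and the keeping of outlier spots left all 32 values unchanged. The processed table and the 75th percentile over all spots shifted every gene by a small constant only. The count of 372 therefore includes values that could hardly move. The median difference of the replication genes was -0.57 with the arrays set level on 8 spike-in probes and -0.14 with centring on the median, against -0.32. The count of genes at least 2-fold lower was 2 under normexp, against 10, and 3 when limits were included, against 13; it was 8 under centring on the median, where Chaf1b and Pola1 drop out, 11 under the spike-in controls, where Ccne1 is added, and 14 of 39 with no filter on dim probes, where 6.50% of all genes were lower. The count at least 2-fold higher was 0 throughout. The split of all genes past 2-fold, 568 lower and 283 higher, became 415 and 462 under centring on the median, 694 and 214 with the 75th percentile of probes detected on both arrays, 923 and 151 under the spike-in controls, and 621 and 248 under loess. Centring on the median moved the median of all genes to 0.27 and the spike-in controls moved it to -0.16; the median of the replication genes stayed between 0.63 and 0.32 below it over the 13 alternatives. Signal over background limits the lower genes on the aged array, and with 1 mouse of each age the number of arrays limits every value.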
